A study of Zea mays with 30 samples.

Results

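The genes described here are Zm00001d011289, Zm00001d012623 and Zm00001d048502, the 3 final candidates that the study named for germination speed in maize, out of 39005 genes in the deposited tables. The candidate list of the study describes Zm00001d011289 as Malic enzyme1, Zm00001d012623 as Malic enzyme 2 and Zm00001d048502 as COP9 signalosome complex subunit 1. The study took them from a list of 87 genes at a locus it mapped for germination speed. It kept genes that differed in expression between the inbred lines at 12 h after imbibition (HAI), and among these it went by expression pattern and putative function. The identifiers of all 3 candidates lie far in number from those of most genes listed. The position of the candidates at the locus was not checked here. RNA sequencing covered whole seeds of 72-3, a line labelled as fast in germination, at 4 times (0, 6, 12 and 24 HAI). It also covered whole seeds of F9721, a line labelled as slow in germination, at the same times and at 36 and 48 HAI. Each of the 10 groups had 3 libraries, 12 from 72-3 and 18 from F9721, and the 0 HAI libraries came from dry seeds. In the germination test described for both lines, seeds were surface-sterilized with dilute hydrogen peroxide, rinsed, and imbibed in water on moist filter paper in a light incubator with a daily light and dark period. Hydrogen peroxide is itself a reactive oxygen species. No treatment differed between the groups, and no modified genotype was part of the design. Each germination class was represented by a single inbred line, so germination speed and every other difference between 72-3 and F9721 cannot be told apart. RNA came from several seeds per time point and from all seed tissues together, so that fewer cells of a type and less RNA per cell cannot be told apart.

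Malic enzymes convert malate to pyruvate and carbon dioxide and pass the electrons to NAD or NADP. In plants they supply pyruvate to the mitochondria or NADPH to biosynthesis and to the reactions that keep reactive oxygen species low, and malate is one of the organic acids that germinating seeds metabolize while reserves are broken down. The COP9 signalosome is a protein complex that removes the ubiquitin-like protein NEDD8, called RUB in plants, from cullins, the scaffolds of a large class of ubiquitin ligases. In Arabidopsis its subunits were identified through mutants whose seedlings develop in the dark as if they were in light, and subunit 1 is needed for the complex to assemble.

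The libraries held 8080968 to 14192708 reads on genes (median 10887437.5), and the 34746 genes with at least 1 read were tested. Levels are given as raw counts, as CPM (counts scaled to a common library size, with TMM factors), and as the deposited TPM, which also account for gene length. A gene passed the test at an adjusted p of at most 0.01 in edgeR's quasi-likelihood test, and a differentially expressed gene (DEG) also had a log2 fold change of 2 or more in size. The gene lengths behind the TPM values were recovered from the counts and TPM values as whole numbers of bases. Zm00001d011289 had 953 bases and Zm00001d012623 had 836 bases, against a median of 2873 bases over the genes tested. Zm00001d048502 had 7446 bases. The longest length over the genes tested was 128402 bases, and how the lengths were defined, with or without introns, is not stated, so every rank per length given here rests on that definition. Of all genes tested, 15.7% were shorter than Zm00001d011289, 12.95% were shorter than Zm00001d012623 and 85.1% were shorter than Zm00001d048502. A complete plant malic enzyme has a coding sequence longer than either of these malic enzyme lengths, and whether the annotated genes are fragments of longer ones was not tested.

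The malic enzyme genes were read in F9721 and in no library of 72-3. With 0 reads among the 125083435 reads counted on genes in the 12 libraries of 72-3, the level there was at or below 0.0240 CPM, the value of 3 counts over the whole line. In a single 72-3 library 3 counts correspond to 0.186 to 0.398 CPM. The 18 F9721 libraries together held 2348 counts of Zm00001d011289 and 506 counts of Zm00001d012623. Zm00001d048502 was read in both lines, with 823 counts in 72-3 (95% Poisson interval 768 to 881) and 87 counts among the 203192416 reads of F9721 (69.7 to 107). These intervals and limits cover counting error only. A transcript that is not made in 72-3 and reads of 72-3 that differ too much from the B73 reference to be aligned or counted cannot be told apart. Nor can a low level of Zm00001d048502 in F9721 be told apart from F9721 reads that were not aligned or counted. By the alignment summary of the study, a smaller share of reads mapped in every F9721 library than in any 72-3 library.

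**Figure D1:**
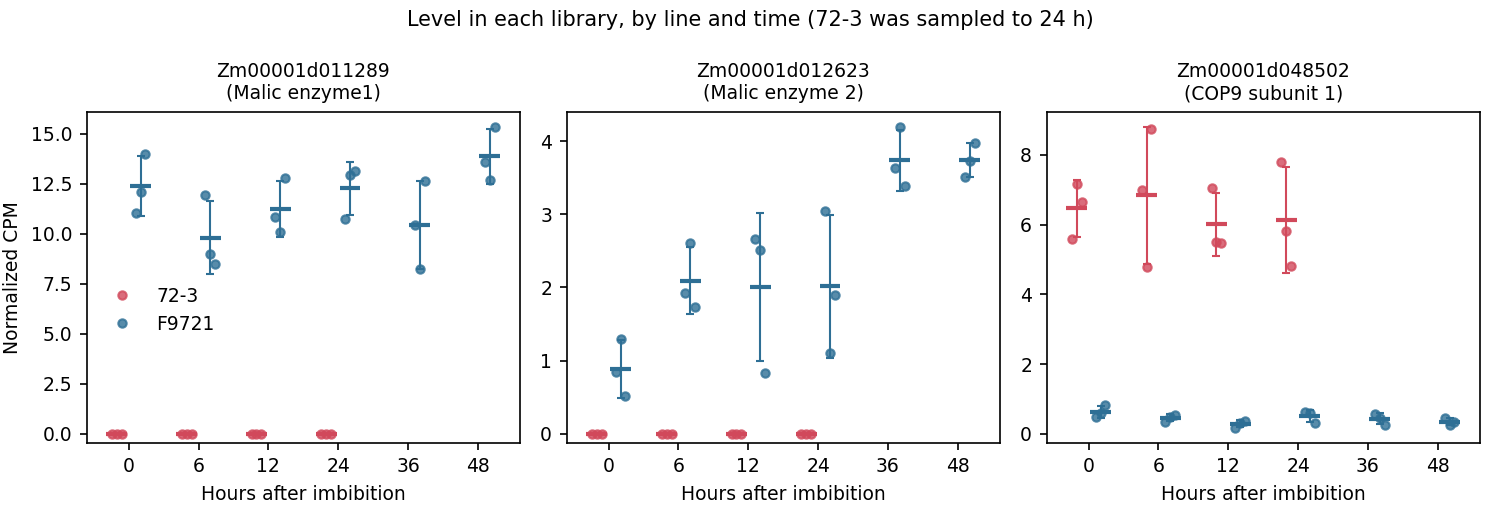
Normalized CPM of each candidate gene in every library (points) against hours after imbibition, with the group mean (thick bar) and SD (thin bar) of 3 libraries, 72-3 in red and F9721 in blue. Both malic enzyme genes sit at 0 in all 12 libraries of 72-3, and Zm00001d048502 lies between 4.80 and 8.73 CPM in 72-3 and between 0.167 and 0.817 CPM in F9721.

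Of the candidates, Zm00001d011289 (Malic enzyme1) had the highest level per length in F9721. In F9721 its counts were 92, 102 and 137 at 0 HAI, 105, 93 and 93 at 6 HAI, and 130, 129 and 138 at 12 HAI. They were 123, 153 and 173 at 24 HAI, 129, 110 and 149 at 36 HAI, and 151, 156 and 185 at 48 HAI. The ranges of all 6 times lay close together, and the dry seeds already held this transcript. The mean level was 12.4 ± 1.5 CPM at 0 HAI, 9.80 ± 1.84 CPM at 6 HAI, 11.2 ± 1.39 CPM at 12 HAI, 12.3 ± 1.34 CPM at 24 HAI, 10.4 ± 2.19 CPM at 36 HAI and 13.9 ± 1.36 CPM at 48 HAI (SD, n = 3 each). In order of the mean level the times ran 6, 36, 12, 24, 0 and 48 HAI. A change over the 6 times of F9721 did not pass the test (edgeR, adjusted p = 0.245), whereas 55.4% of all genes tested passed it. The log2 fold change at 48 HAI against 0 HAI was 0.16, with a 95% interval of -0.25 to 0.57, and the largest difference from dry seeds in size was -0.34 at 6 HAI (-0.76 to 0.08, edgeR adjusted p = 0.536). Per length the gene stood high among the genes of F9721, and 82.6% to 87.9% of the genes with a TPM above 0 had a lower mean TPM at the 6 times.

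Zm00001d012623 (Malic enzyme 2) was lowest in the dry seeds of F9721 and highest at 36 and 48 HAI. Its counts were 7, 11 and 5 at 0 HAI, 17, 27 and 19 at 6 HAI, and 32, 32 and 9 at 12 HAI. They were 35, 13 and 25 at 24 HAI, 45, 56 and 40 at 36 HAI, and 39, 46 and 48 at 48 HAI. The libraries at 12 and 24 HAI were spread widely, with replicate 3 at 12 HAI and replicate 2 at 24 HAI down at the level of the dry seeds. The mean level was 0.884 ± 0.397 CPM at 0 HAI, 2.09 ± 0.458 CPM at 6 HAI, 2.0 ± 1.01 CPM at 12 HAI, 2.01 ± 0.980 CPM at 24 HAI, 3.74 ± 0.415 CPM at 36 HAI and 3.74 ± 0.235 CPM at 48 HAI (SD, n = 3 each). All 6 libraries at 36 and 48 HAI, from 3.39 to 4.20 CPM, lay above all 12 libraries at 0 to 24 HAI, from 0.511 to 3.05 CPM. The share of all genes with such a separation was not computed, so how common it is cannot be told.

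The change of Zm00001d012623 over the 6 times of F9721 passed the test (edgeR, adjusted p = 0.00239). Its adjusted p became 0.0132 without replicate 3 of the dry seeds, the library with 5 counts, and this call was then lost. Against 0 HAI the gene rose 4.25-fold at 36 HAI (log2 fold change 2.09, SE 0.45, edgeR adjusted p = 0.000359), with a 95% interval of 1.16 to 3.01 on the log2 scale. At 48 HAI it rose 4.25-fold as well (log2 fold change 2.09, SE 0.45, edgeR adjusted p = 0.000345). At these times 10.5% and 12.8% of all genes tested were DEGs with a higher level than in dry seeds. At 6, 12 and 24 HAI the log2 fold changes were 1.25, 1.20 and 1.19, with edgeR adjusted p values of 0.178, 0.0616 and 0.0411, and none passed the test. A fit on only the libraries at 12 and 0 HAI gave an edgeR adjusted p of 0.00813 for the change at 12 HAI (log2 fold change 1.22), which passed. The F9721 libraries at 12 HAI were among those by which the study chose the genes. Tests of a candidate that use these libraries are therefore not independent of that choice. No step between neighbouring times from 6 HAI on passed the test, and the largest of them was 0.89 at 36 HAI against 24 HAI (95% interval 0.09 to 1.70, edgeR adjusted p = 0.101). In order of the mean level, 6, 12 and 24 HAI differed by less than their spread, and so did 36 and 48 HAI.

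**Figure D2:**
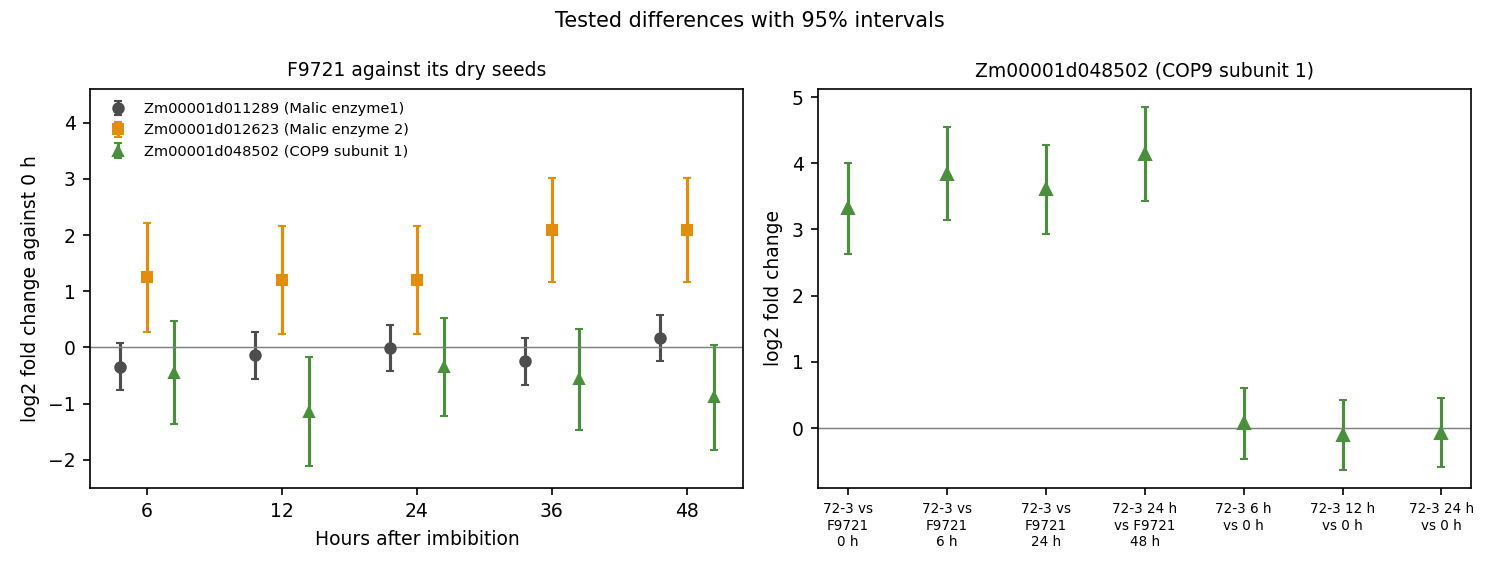
Log2 fold changes (y axes) with 95% intervals from edgeR, on the left for the 3 genes in F9721 at 6 to 48 h against 0 h, and on the right for Zm00001d048502 between the lines and within 72-3. Zm00001d012623 is the gene with intervals above 0 throughout on the left, with 2.09 at 36 and 48 h, and Zm00001d048502 is at 3.32 to 4.14 between the lines and between -0.10 and 0.07 over time in 72-3.

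Because Zm00001d012623 changed over time and Zm00001d011289 did not pass the test, the balance of the pair was compared within each library, where the scaling of the library drops out. The TPM of Zm00001d011289 over that of Zm00001d012623 was 11.5, 8.13 and 24.0 in the dry seeds of F9721. It was 5.42, 3.02 and 4.29 at 6 HAI, 3.56, 3.54 and 13.5 at 12 HAI, and 3.08, 10.3 and 6.07 at 24 HAI. It was 2.51, 1.72 and 3.27 at 36 HAI and 3.40, 2.97 and 3.38 at 48 HAI. Zm00001d011289 was thus the higher of the pair per length in all 18 libraries. The ratios at 6, 36 and 48 HAI all lay below those of the dry seeds, and those at 12 and 24 HAI overlapped with them. How common such a separation is among other pairs of genes was not computed. Zm00001d012623 made up 7.64% of the summed TPM of the pair at 0 HAI and 19.8%, 17.0%, 15.8%, 29.5% and 23.6% at 6, 12, 24, 36 and 48 HAI. The ratios at 0 HAI rest on 5 to 11 counts of Zm00001d012623 per library. These ratios are a description and were not tested.

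The time courses differed between the scales. One factor per library links the TPM of every gene to its normalized CPM, and relative to 0 HAI this factor moved by -0.08, -0.04, 0.38, 0.75 and 0.71 on the log2 scale at 6, 12, 24, 36 and 48 HAI in F9721. In 72-3 it moved by -0.05, 0.35 and 0.64 at 6, 12 and 24 HAI. Between the lines at the same time it was higher in 72-3 by 0.16, 0.20, 0.55 and 0.42 at 0, 6, 12 and 24 HAI, and no direction between the lines turned for the candidates on the TPM scale. In TPM the mean of Zm00001d011289 was 21.5 in dry seeds and 16.1, 19.0, 27.5, 30.9 and 39.5 at the later times. On log2(TPM + 1) its change at 48 HAI was 0.85 and passed limma's test (adjusted p = 0.000204), as did its change over the 6 times (adjusted p = 9.47e-06). The shift that all genes share at 48 HAI was 0.71 of this, and the change on the CPM scale was 0.16. Zm00001d012623 rose on both scales, with a mean TPM of 1.71, 3.87, 3.79, 5.23, 12.4 and 12.1 over the same 6 times. Which scale is closer to the amount of transcript per seed was not tested.

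**Figure D3:**
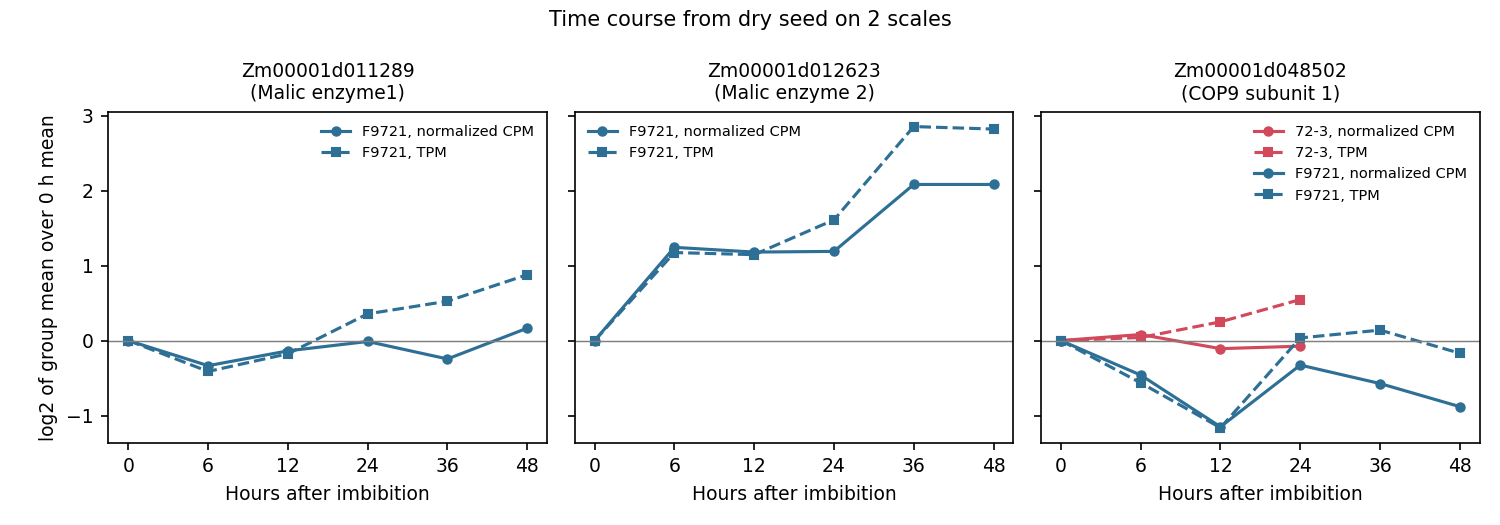
Log2 of the group mean over the 0 h mean of the same line (y axis) against hours after imbibition, in normalized CPM (solid lines, circles) and in TPM (dashed lines, squares), 72-3 in red and F9721 in blue. The scales part from 24 h in F9721 and from 12 h in 72-3, and Zm00001d012623 rises on both.

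Between the lines, the libraries of 72-3 and F9721 did not overlap for any of the 3 candidates at any shared time. At 0, 6, 12 and 24 HAI all 72-3 libraries lay below all F9721 libraries for 24.2%, 23.6%, 25.2% and 25.5% of the genes tested, and above them for 26.3%, 23.7%, 25.5% and 25.8%. The contrast at 12 HAI was used by the study to choose the genes, so its values are given without a test. At that time Zm00001d011289 was at 0 in 72-3 and at 11.2 ± 1.39 CPM in F9721, which is at least 45.2-fold lower in 72-3 when the mean of 3 counts per library stands for 0. Zm00001d012623 was at least 8.05-fold lower in 72-3 by the same measure. Zm00001d048502 was 21.2-fold higher in 72-3 at 12 HAI.

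The other times used libraries that the choice at 12 HAI did not, although the study also looked at the expression pattern of the candidates. Zm00001d011289 was a DEG at each of them. Its level was at least 31.6-fold lower in 72-3 at 0 HAI, at least 28.6-fold lower at 6 HAI and at least 57.9-fold lower at 24 HAI (edgeR adjusted p = 9.11e-13, 1.51e-12 and 4.84e-14). Of all genes tested, 6.05%, 5.85% and 8.57% were DEGs with a lower level in 72-3 at these times. By the fold change that edgeR fitted, Zm00001d012623 was a DEG at each of these times as well. Its bounds were smaller: at least 2.26-fold lower in 72-3 at 0 HAI, at least 6.10-fold lower at 6 HAI and at least 9.52-fold lower at 24 HAI (edgeR adjusted p = 0.000331, 2.62e-06 and 2.18e-07). The bound at 0 HAI alone would not reach the fold limit of a DEG. All bounds take the F9721 mean as exact, and for Zm00001d012623 at 0 HAI it rests on 5 to 11 counts per library. With 1 library left out, that bound ran from -1.45 to -0.79 on the log2 scale. The adjusted p values test the fold changes that edgeR fitted and not the bounds. Since 72-3 stayed at 0, the size of each bound is set by the level in F9721 and by the depth of the 72-3 libraries. At the last time sampled in each line, 24 HAI in 72-3 and 48 HAI in F9721, the levels of Zm00001d011289 and Zm00001d012623 were at least 65.5-fold and at least 17.7-fold lower in 72-3 (edgeR adjusted p = 4.1e-14 and 2.29e-08), where 5.92% of the genes were DEGs in that direction. Whether the change from dry seeds differed between the lines could not be tested for the malic enzyme genes, because every 72-3 library was at 0.

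Zm00001d048502 (COP9 signalosome complex subunit 1) was higher in 72-3 at every time tested between the lines, and its time course passed the test in neither line. In 72-3 its counts were 42, 55 and 52 at 0 HAI, 62, 49 and 66 at 6 HAI, 108, 67 and 54 at 12 HAI, and 126, 71 and 71 at 24 HAI. In F9721 they were 4, 5 and 8 at 0 HAI, 3, 5 and 6 at 6 HAI, 2, 4 and 4 at 12 HAI, and 7, 7 and 4 at 24 HAI. F9721 held 7, 6 and 3 counts at 36 HAI and 5, 3 and 4 counts at 48 HAI. The lowest library of 72-3, with 42 counts, was well above the highest of F9721, with 8 counts, and F9721 was never at 0.

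The 72-3 libraries averaged 6.47 ± 0.819 CPM at 0 HAI, 6.84 ± 1.97 CPM at 6 HAI, 6.01 ± 0.905 CPM at 12 HAI and 6.15 ± 1.52 CPM at 24 HAI (SD, n = 3 each). F9721 averaged 0.629 ± 0.172 CPM at 0 HAI, 0.457 ± 0.107 CPM at 6 HAI, 0.284 ± 0.105 CPM at 12 HAI, 0.502 ± 0.172 CPM at 24 HAI, 0.423 ± 0.157 CPM at 36 HAI and 0.342 ± 0.104 CPM at 48 HAI (SD, n = 3 each). The gene was a DEG with a higher level in 72-3 at all 3 times tested. It was 10.0-fold higher at 0 HAI (log2 fold change 3.32, SE 0.34, edgeR adjusted p = 2e-09), 14.4-fold higher at 6 HAI (3.84, SE 0.34, adjusted p = 1.6e-10) and 12.2-fold higher at 24 HAI (3.6, SE 0.33, adjusted p = 1.22e-10). Of all genes tested, 5.16%, 5.51% and 9.55% were DEGs with a higher level in 72-3 at 0, 6 and 24 HAI. 72-3 at 24 HAI was 17.6-fold above F9721 at 48 HAI (log2 fold change 4.14, SE 0.35, edgeR adjusted p = 4.02e-11), with 6.56% of the genes DEGs in that direction.

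For Zm00001d048502 a change over the 4 times of 72-3 had an edgeR adjusted p of 0.981, where 49.9% of all genes tested passed, and over the 6 times of F9721 the adjusted p was 0.446. Against 0 HAI the log2 fold changes in 72-3 were 0.07 at 6 HAI (95% interval -0.46 to 0.60), -0.10 at 12 HAI (-0.63 to 0.42) and -0.07 at 24 HAI (-0.59 to 0.45). In F9721 they were -0.45, -1.15, -0.35, -0.57 and -0.89 at 6, 12, 24, 36 and 48 HAI, and at 12 HAI the 95% interval ran from -2.11 to -0.18 with an edgeR adjusted p of 0.111. With 2 to 8 counts per library the F9721 course has wide intervals. The 12 HAI libraries of both lines helped to choose the gene. Its values at that time and the tests over all times of either line are therefore not independent of the choice. In TPM the means of 72-3 were 1.60, 1.64, 1.90 and 2.34 at 0, 6, 12 and 24 HAI, and on log2(TPM + 1) the change at 24 HAI was 0.36 and passed limma's test (adjusted p = 0.00484), beside the shared shift of 0.64 given above, while with a pseudocount of 0.1 it did not pass (0.52, limma adjusted p = 0.0833). The interaction, which compares the change from dry seeds in 72-3 with that in F9721, was 0.52 at 6 HAI and 0.28 at 24 HAI on the log2 scale (edgeR adjusted p = 1.0 and 0.857), so that neither passed the test, with 95% intervals of -0.54 to 1.58 and -0.73 to 1.29.

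Per length, Zm00001d048502 was a gene of modest level in 72-3 and of low level in F9721. Among genes with a TPM above 0, 35.6% to 40.5% had a lower mean TPM than it in 72-3, and 10.9% to 16.4% in F9721. Zm00001d012623 ranked above it in F9721, where 68.7% of such genes were lower at 48 HAI and 44.3% at 0 HAI.

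Reads in all libraries of F9721 and in none of 72-3 were found for 237 genes, or 0.682% of the genes tested, Zm00001d011289 and Zm00001d012623 among them. The converse held for 150 genes, or 0.432%. Of the 237 genes, 7 had a higher mean CPM in F9721 than Zm00001d011289 and 62 had a higher one than Zm00001d012623. The median length of the 237 genes was 1843 bases and that of the 150 genes was 1525 bases, against 2873 bases over all genes tested, and the malic enzyme genes with 953 and 836 bases were shorter still. No gene met either condition among the 79 tested of the 84 other genes in the candidate list of the study.

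The identifiers next in number to each candidate, 5 on either side, were read in both lines for most genes. Around Zm00001d011289, 8 of the 10 had a read in 72-3 and 9 in F9721. Around Zm00001d012623 all 10 had reads in both lines, and around Zm00001d048502 9 had reads in each line. The neighbours of Zm00001d011289 included genes that differed between the lines in either direction, here singled out after their values were seen. Zm00001d011290, the next identifier after it, had 5 counts over the 12 libraries of 72-3 and 1977 counts over the 18 libraries of F9721, with at most 2 counts in any 72-3 library and at least 66 in each F9721 library. Zm00001d011284 had 297 counts in 72-3 and 14 in F9721, and Zm00001d011294 had 1196 counts in 72-3 and 40 in F9721. Near Zm00001d048502, Zm00001d048504 went the opposite way to the candidate, with 11 counts in 72-3 and 292 in F9721. No annotation of the genome build used by the authors was at hand, so the identifiers are ordered by number and not by position.

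**Figure D4:**
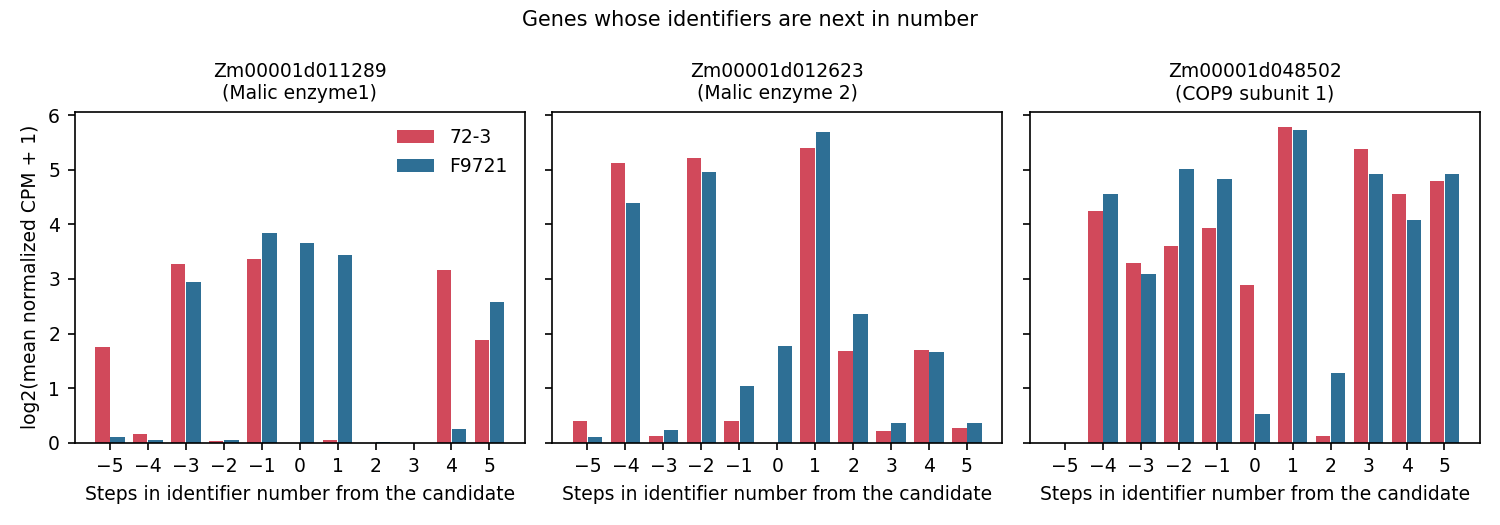
Mean normalized CPM on a log2(CPM + 1) scale (y axis) of the 5 identifiers before and the 5 after each candidate in number (x axis, with the candidate at 0), in 72-3 (red, 12 libraries) and F9721 (blue, 18 libraries). Around Zm00001d011289 the identifier at +1 has reads almost entirely in F9721, while those at -5 and +4 are mostly read in 72-3.

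Zm00001d048502 is the candidate with other listed genes close to it in number, although these numbers too lie far from those of most genes listed. The 6 other listed genes within 50 numbers of it were 3 genes without a description, Zm00001d048511 (AP-2 complex subunit alpha-2, part of the adaptor for clathrin-mediated endocytosis), Zm00001d048527 (rolled leaf 1) and Zm00001d048536 (SKP1-like protein 21). All 6 were read in every library of both lines, and none passed the test between the lines in dry seeds, where 14.5% of all genes tested passed with a higher level in 72-3 and 13.7% with a lower one. At 24 HAI 3 of the 6 passed, beside 21.5% of all genes higher and 20.3% lower in 72-3. Zm00001d048511 had 62.8 to 97.8 CPM in 72-3 (median 71.7) and 94.7 to 209 CPM in F9721 (median 121). It was one of the 3, lower in 72-3 at 24 HAI with a log2 fold change of -0.97 (SE 0.13, edgeR adjusted p = 1.36e-07). Zm00001d048527 was higher in 72-3 at 24 HAI by 1.6 (SE 0.21, adjusted p = 1.57e-07), and so was Zm00001d048507, which has no description, by 1.04 (SE 0.20, adjusted p = 5.76e-05). Zm00001d048527 rose from the dry seeds in both lines, by 2.61 at 24 HAI in 72-3 and by 3.22 at 48 HAI in F9721 on the log2 scale (edgeR adjusted p = 3.11e-11 and 5.95e-13).

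The names of 4 genes in the list (F-box, RING, RING/U-box and SKP1-like) are those of families that include ubiquitin ligases or their parts, a grouping made here and not by the study. Only some RING and U-box proteins act with cullins. SKP1 proteins link F-box proteins to cullins, and Zm00001d048536 (SKP1-like protein 21) rose in both lines, by 1.01 on the log2 scale at 24 HAI in 72-3 (SE 0.27, edgeR adjusted p = 0.00163) and by 2.0 at 24 HAI and 3.11 at 48 HAI in F9721 (adjusted p = 3.64e-07 and 5.17e-11). At 24 HAI 47.0% of all genes passed against dry seeds in 72-3 and 35.4% in F9721. It had 15.2 to 65.9 CPM in 72-3 (median 21.4) and 13.7 to 127 CPM in F9721 (median 41.6). The F-box gene Zm00001d027306 had 0 counts in all 30 libraries. Many RING proteins bind the enzyme that carries ubiquitin, and Zm00001d027308 (RING/U-box superfamily protein) had at most 24 counts in a library of 72-3 and at most 37 in a library of F9721. It rose from dry seeds by 2.74 at 24 HAI in 72-3 (SE 0.84, edgeR adjusted p = 0.00618) and by 3.66 at 36 HAI in F9721 on the log2 scale (adjusted p = 4.63e-05), and at 48 HAI in F9721 the value was 1.54 (adjusted p = 0.117), which did not pass. Zm00001d027312 (a putative RING zinc finger protein) fell in F9721 at 24 HAI by 0.82 on the log2 scale (SE 0.22, edgeR adjusted p = 0.00234) and had a log2 fold change of 0.05 at 24 HAI in 72-3 (adjusted p = 0.954). None of the 3 with reads passed the test between the lines in dry seeds or at 24 HAI.

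Over the 79 other genes of the list that were tested, 10 were higher and 11 lower in 72-3 by the test in dry seeds, and 14 were higher and 20 lower at 24 HAI. In dry seeds 14.5% of all genes tested passed with a higher level in 72-3 and 13.7% with a lower one, and at 24 HAI 21.5% and 20.3%. The median log2 fold change of the 79 genes was 0 in dry seeds and -0.10 at 24 HAI, beside 0 over all genes at both times. Over the 21597 genes with a mean of at least 1 CPM, the median log2 change in mean CPM was 0.03 and -0.01. As DEGs, 1 of the 79 was higher and 2 were lower in 72-3 in dry seeds, beside 5.16% and 6.05% of all genes. In F9721 at 48 HAI, 30 of the 79 were higher and 16 lower than in dry seeds by the test, beside 25.1% and 20.9% of all genes. Their median log2 fold change was 0.39, beside 0.00 over all genes tested and 0.13 in mean CPM over the same 21597 genes.

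Genes with levels most alike to each candidate were sought by Pearson's r of log2(CPM + 1) over all 30 libraries among 21597 genes with a mean of at least 1 CPM. For Zm00001d011289 they were Zm00001d034286 (r = 0.997) and Zm00001d025423 (r = 0.996), with at most 1 and 2 counts in a library of 72-3 and at most 423 and 926 in a library of F9721. For Zm00001d012623 they were Zm00001d013906 (r = 0.962) and Zm00001d044978 (r = 0.959). For Zm00001d048502 they were Zm00001d012266 and Zm00001d046274 (r = 0.991 each), with at most 0 and 1 counts in a library of F9721. The 30 libraries share line and time, so r takes in the difference between the lines and is not a measure of the time course alone. Likeness to these genes within a single line was not computed. In all, 579, 273 and 588 genes had an r of at least 0.9 with Zm00001d011289, Zm00001d012623 and Zm00001d048502. Within the 18 F9721 libraries the candidates did not move together closely. There r was -0.20 between the malic enzyme genes, -0.09 between Zm00001d011289 and Zm00001d048502, and -0.46 between Zm00001d012623 and Zm00001d048502, over libraries that share time points.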

How the data were processed

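Paired reads were trimmed (fastp), aligned to B73 AGPv4 (Hisat2) and assigned to genes by HTSeq's union mode, which sets aside reads over several genes. The deposited counts are raw. The authors derived the TPM values in R, and each library's TPM values sum to 1000000. Tool versions and the strand setting are not given in the sources used here. Without a stated strand setting, reads of a gene and of an antisense neighbour cannot be told apart, and genes with a near-identical copy can be undercounted. Reads outside genes made up 5.59% to 20.9% of the reads tallied and ambiguous reads 1.60% to 2.11%, and these summary entries stayed out of the library sizes. All 30 sample tables equalled the series table.

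Counts were fitted in R 4.3.3 with edgeR 4.0.16 (TMM, quasi-likelihood, 10 group means over 30 libraries), with Benjamini-Hochberg adjustment over the 34746 genes with at least 1 read. The standard error is the absolute log2 fold change over the square root of F, and intervals are 95%. A group at 0 was set to 3 counts per library for a bound. The steps were tested on simulated data. Gene lengths were taken as count over TPM, scaled per library, and came out whole within 0.01 bases for 100% of genes. The candidates, lists and tests were chosen with earlier results of these data known. The genes named are the candidates, the listed genes within 50 identifier numbers of them, the listed genes named as F-box, RING, RING/U-box or SKP1-like and the 2 genes most alike to each candidate. No match to the RefSeq gene table at hand was found for the 39005 identifiers, so other malic enzyme, malate, COP9 and cullin genes and seed marker genes, by which the labelled tissue would be checked, were not analysed here. Replicates are described as biological by the labels, from different ears by the study, with no number tied to an ear. Alternatives were DESeq2 1.42.0, its size factors in edgeR, filterByExpr, a replicate block, only the groups compared, limma 3.58.1 on the deposited TPM with a pseudocount of 1 or 0.1, a stricter adjusted p (0.001), leaving out single libraries, and a limit of 3 counts for reads in a single line.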

Additional observations from a re-analysis of the deposited data

How the results depend on the processing

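Every difference between the lines kept its direction and its call by adjusted p alone for all 3 genes in each alternative run. So did the rise of Zm00001d012623 at 36 and 48 HAI. The fold limit of a DEG was not always met. On log2(TPM + 1) with limma, Zm00001d048502 was at 1.19, 1.25 and 1.54 at 0, 6 and 24 HAI, below the limit of 2. It was at 1.56 between the last times, and Zm00001d012623 was at -1.41 between the lines at 0 HAI. With 1 library left out, the rise of Zm00001d012623 went down to 1.79 at 36 and 48 HAI. Outside the fits that leave out a library, 374 of 411 values kept their direction and call, and 345 of 366 did when 1 library was left out. On log2(TPM + 1) and log2(TPM + 0.1) with limma, Zm00001d011289 at 48 HAI against 0 HAI passed at 0.85 and 0.88, with adjusted p values of 9.47e-06 and 2.46e-05 for a change over the 6 times. Zm00001d012623 passed at 24 HAI against 0 HAI at 1.13 and 1.49 and from 24 to 36 HAI at 1.20 and 1.36. By the construction of the scales, every gene moves by the same factor per library. In the same fits these values changed sign: Zm00001d011289 at 24 HAI (0.35 and 0.36) and at 36 HAI (0.47 and 0.49) against 0 HAI and from 24 to 36 HAI (0.12 and 0.13), and Zm00001d012623 from 12 to 24 HAI (0.37 and 0.47). Zm00001d048502 changed sign in F9721 at 24 HAI (0.0042 and 0.015) and 36 HAI (0.018 and 0.082) against 0 HAI and from 24 to 36 HAI (0.014 and 0.067), and in 72-3 at 12 HAI (0.15 and 0.23) and 24 HAI (0.36 and 0.52) against 0 HAI and from 6 to 12 HAI (0.14 and 0.23). The mean of Zm00001d011289 at 48 HAI over that at 0 HAI was 1.12 in CPM.

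The adjusted p of 0.00239 for Zm00001d012623 over the 6 times missed the stricter limit of 0.001. Fitted on only the groups compared, its change at 12 HAI passed at 1.22, and the cause was not tested. That fit used the F9721 libraries at 12 HAI, which helped to choose the gene, so the pass is not independent of the choice. Its step from 36 to 48 HAI turned positive at 0.023 with DESeq2, with DESeq2's size factors and on only the groups compared, at 0.013 with filterByExpr and at 0.018 with the replicate block, beside -0.00073. With the replicate block its step from 12 to 24 HAI was 0.042. The replicate numbers were not taken to pair the samples, since all 3 same-numbered pairs correlated above 0.1 in only 2 of 45 pairs of groups. These were F9721 at 6 and 24 HAI (0.20, 0.16 and 0.11) and F9721 at 36 and 48 HAI (0.55, 0.66 and 0.87). The results of F9721 at 36 and 48 HAI are therefore not taken as independent of each other. The block changed no call of the 3 genes, with 2.12 for Zm00001d012623 at 48 HAI, and moved the genes that passed at 48 HAI against 0 HAI in F9721 to 15915, beside 16000. On only the groups compared, 4379 genes passed between 72-3 at 24 HAI and F9721 at 48 HAI, beside 10268. With at most 3 counts in place of 0, 440 genes had reads only in F9721 and 316 only in 72-3.

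With 1 library left out, the adjusted p of Zm00001d012623 over the 6 times ran from 0.000806 to 0.0132. Values that crossed 0 were those of Zm00001d048502 in 72-3 at 6 HAI (-0.14 to 0.28) and 24 HAI (-0.29 to 0.077) against 0 HAI, from 6 to 12 HAI (-0.38 to 0.035) and from 12 to 24 HAI (-0.18 to 0.18), and in F9721 from 24 to 36 HAI (-0.49 to 0.029). The others were Zm00001d011289 at 24 HAI against 0 HAI (-0.088 to 0.087) and Zm00001d012623 from 6 to 12 HAI (-0.30 to 0.31), 12 to 24 HAI (-0.42 to 0.28) and 36 to 48 HAI (-0.066 to 0.091). None of these had passed the test. The 2 to 8 counts of Zm00001d048502 in F9721 and the 5 to 56 counts of Zm00001d012623 limit the precision of their courses.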
